A study of Mus musculus with 6 samples.

Results

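The genes described here carry thyroid hormone into brain cells, activate or inactivate it, bind it in the nucleus, or are textbook targets of it. They were chosen by symbol, as the rows of the gene list named Slco1c1, Dio2, Dio3, Thra, Thrb, Hr and Klf9, which makes 7 of 32285 genes. The rule itself used no measured value, but the genes were chosen with earlier results of these data known. Each symbol matched 1 row.

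Thyroid hormone reaches the brain mainly as the prohormone thyroxine, which crosses the blood-brain barrier through transporters such as OATP1C1, the product of Slco1c1. Astrocytes convert thyroxine to the active hormone triiodothyronine with the type 2 deiodinase (Dio2), and the type 3 deiodinase (Dio3) inactivates both. Triiodothyronine binds the nuclear receptors encoded by Thra and Thrb, which sit on DNA with retinoid X receptors and exchange corepressors for coactivators when the hormone binds. Klf9, a zinc-finger transcription factor, and Hr, a corepressor, are among the best known genes that these receptors switch on. The hormone times the differentiation of oligodendrocytes, and myelination is in full course in the mouse at the age studied.

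The study asked which brain cells respond early to the loss of NPC1, a cholesterol transporter of the lysosome. Single-nucleus RNA sequencing (snRNA-seq), in which transcripts of single nuclei are counted in droplets as unique molecular identifiers (UMIs), was carried out on frozen forebrain of untreated mice at postnatal day 16, 3 WT and 3 Npc1-/-. Npc1-/- mice were F1 hybrids of the BALB/cJ and C57BL6/J strains that lacked Npc1 in every cell from the Npc1 nih allele, WT mice were their littermates, and both sexes were used. The 6 libraries were joined in 1 count matrix, no source used here ties a library to a mouse, and the genotypes were therefore not compared: libraries are named 1 to 6 by their barcode suffix and are replicates of no group.

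The matrix held 75878 barcodes and 497750379 UMIs. The libraries held 8217 to 16118 barcodes with a median of 4469 to 5439 UMIs each. After 11 barcodes with a mitochondrial share of 10% or more had been left out, the 75867 nuclei fell into 34 clusters. Of these, 27 clusters with 59823 nuclei (78.9%) were named in 17 classes from lists of marker genes, and 7 clusters with 21.1% of nuclei were left unnamed because mitochondrial genes led them, too few markers were enriched, markers of 2 classes were mixed or doublet scores were high. Neither the 7 genes nor the wider hormone pathway took part in the clustering. Nuclei of 1 library were unevenly spread over a few groups: 45.2% of neuroblast-like nuclei came from library 3 and 52.0% of excitatory cluster 23 from library 4. Classes compared below were uneven too. Mature oligodendrocyte-like nuclei made up 1.08% to 5.39% of a library, with 160, 162 and 101 nuclei in libraries 3, 4 and 6. Endothelial-like nuclei made up 1.84% to 6.25%, with 199 and 155 nuclei in libraries 5 and 6. The same barcode sequence was found in over 1 library for 631 sequences, carried by 1264 nuclei (1.67%), and the calls of members given below were the same without them. Tanycytes, another known site of Dio2, were not resolved as a class. Of the markers listed for them, Rax (46 UMIs in all), Fndc3c1 (105), Scn7a (1475) and Frzb (1640) were highest in ependymal-like nuclei. Lhx2 (7968) was highest in astrocyte-like and Col25a1 (87006) in thalamic neuron-like nuclei. Whether tanycytes lie within the ependymal-like class was not tested.

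Levels are given as CPM, the UMIs of a gene per 1000000 UMIs of all genes in a class, with nuclei of all libraries summed. Intervals are exact 95% intervals for counting error only, and the spread between libraries is given by the lowest and the highest library. CPM depends on transcript length, intron content and priming, so levels are compared between cell classes for 1 gene and never between genes. Over all nuclei, Thrb was counted 223681 times, Thra 76910, Klf9 67447, Slco1c1 60327, Dio2 5715, Hr 5253 and Dio3 116 times.

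On the GRCm38 assembly, Slco1c1 lies on chr6:141524368-141570177 (plus strand), Dio2 on chr12:90724552-90738438 (minus strand) and Dio3 on chr12:110279068-110281097 (plus strand). Thra lies on chr11:98740638-98769006, Thrb on chr14:17660261-18038090, Hr on chr14:70552212-70573548 and Klf9 on chr19:23141226-23168134, all on the plus strand. Thra overlaps Nr1d1 on the opposite strand, Thrb overlaps Gm48320, Gm24140 and Gm48321, and Dio2 overlaps Gm26512. No source used here states whether the counting used the strand of a read, so the levels of Thra, Thrb and Dio2 are uncertain to the extent that such reads were shared.

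The 250 bases before the annotated start (RefSeq, GRCm38.p6) are shown for Dio2, Slco1c1 and Klf9, the members whose highest class did not overlap the next one over libraries and whose window lies outside annotated exons. Windows were listed for 5 of the 7 genes. Motifs were searched on both strands: the receptor half-site AGGTCA, which was found in 14% of 32851 windows of the same length, the GC box GGGCGG (32.7%), the cAMP response element TGACGTCA (1.55%) and the TATA box TATAAA (12.4%). The cAMP response element and the TATA box were added to the search after the sequences had been seen. Capitals mark a motif, and a match is a description of the letters only.
Dio2, chr12:90739039-90739288, minus strand: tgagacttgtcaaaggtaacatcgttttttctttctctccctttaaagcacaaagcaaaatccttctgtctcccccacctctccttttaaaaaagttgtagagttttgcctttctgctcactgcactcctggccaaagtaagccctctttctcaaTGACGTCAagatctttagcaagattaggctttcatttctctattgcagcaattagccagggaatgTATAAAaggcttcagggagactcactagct
Slco1c1, chr6:141524104-141524353, plus strand: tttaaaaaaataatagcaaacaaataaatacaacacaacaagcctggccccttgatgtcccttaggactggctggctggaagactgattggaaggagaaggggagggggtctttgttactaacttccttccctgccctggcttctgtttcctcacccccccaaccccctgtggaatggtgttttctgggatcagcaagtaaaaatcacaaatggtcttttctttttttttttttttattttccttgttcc
Klf9, chr19:23140976-23141225, plus strand: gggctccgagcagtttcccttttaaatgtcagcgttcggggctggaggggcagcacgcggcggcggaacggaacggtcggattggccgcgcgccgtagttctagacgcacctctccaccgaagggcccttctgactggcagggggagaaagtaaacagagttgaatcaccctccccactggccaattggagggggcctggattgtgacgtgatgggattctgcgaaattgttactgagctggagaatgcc
In Dio2 the cAMP response element began 95 bases and the TATA box 30 bases before the RefSeq start. The gene position given above is from GENCODE, and its Dio2 start, 90738438, lies downstream of the RefSeq start. The distances do not hold for the GENCODE start. The Dio2 and Slco1c1 windows were poor in G and C (41.6% and 42.8%, with 2 and 0 CG dinucleotides), while the Klf9 window held 59.6% and 18 CG dinucleotides, beside a median of 52.4% over all windows. None of these 3 windows held the half-site or the GC box, and TATA boxes were also found in the Dio3 window and in the downstream Thrb window. Among the members, only the upstream Thrb window held the half-site, 184 bases before the start and inside an annotated Thrb exon:
Thrb, chr14:17660764-17660793, plus strand: aggagagttgacAGGTCAagggaatagggc
No member window held the direct repeat of the half-site with a gap of 4 bases, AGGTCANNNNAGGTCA, which 0.0152% of all windows held.

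**Figure D1:**
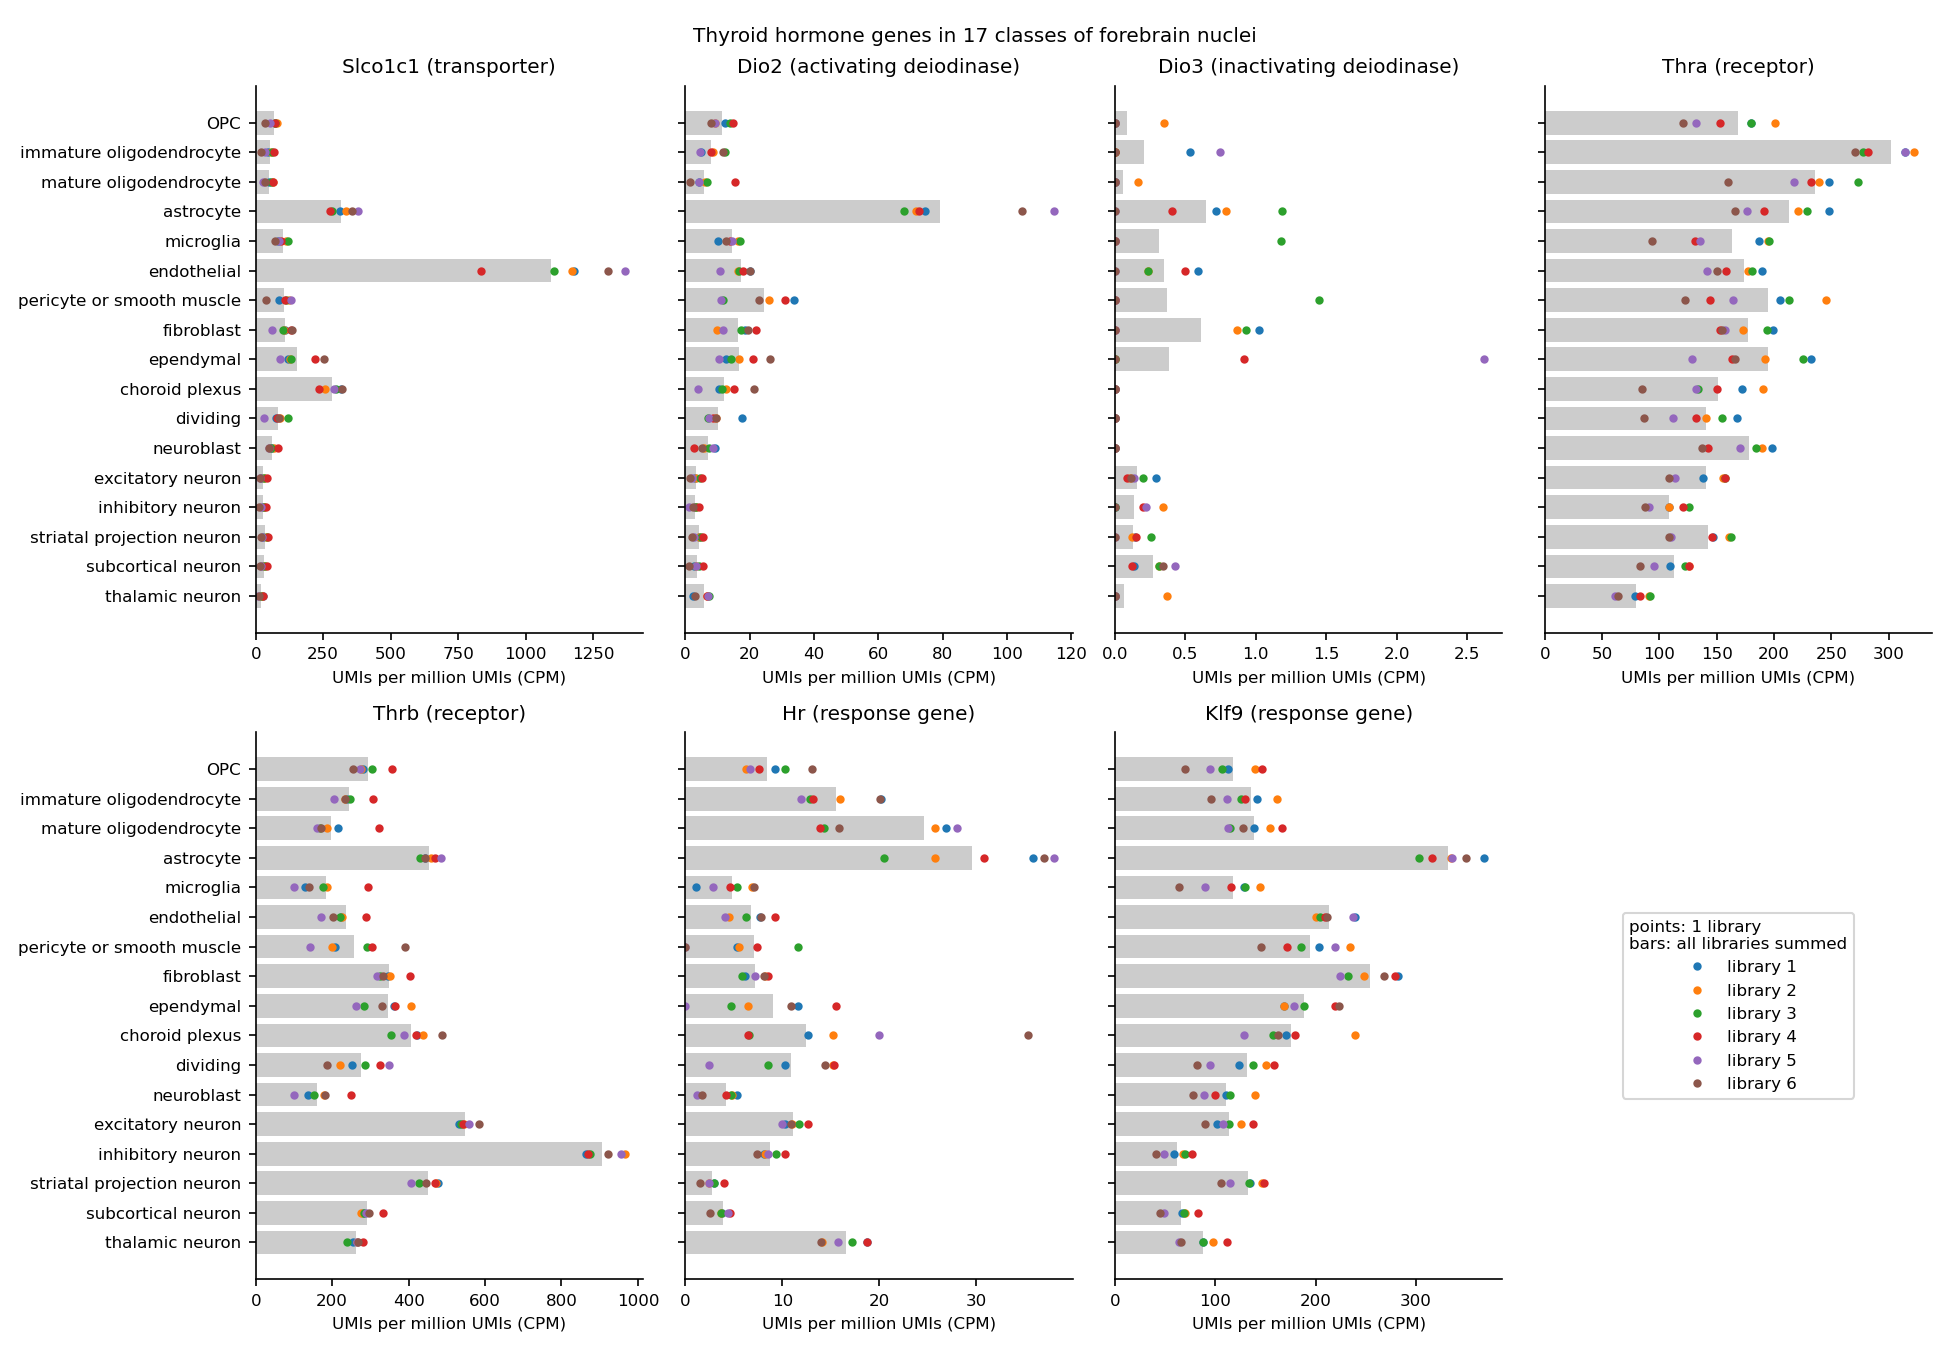
CPM of the 7 genes (horizontal axes, 1 panel a gene, each with its own scale) in 17 classes of nuclei; bars are all libraries summed and points single libraries. Slco1c1 peaks in endothelial-like nuclei (1093 CPM), Dio2 and Klf9 in astrocyte-like nuclei (79.3 and 332 CPM), Thrb in inhibitory neuron-like nuclei (907 CPM) and Thra in immature oligodendrocyte-like nuclei (302 CPM), while Dio3 stays at or below 0.64 CPM with libraries summed.

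Among the named classes, Slco1c1, the thyroxine transporter, was highest in endothelial-like nuclei, the cells that form the blood-brain barrier, at 1093 CPM (1078 to 1109). The 6 libraries gave 1181, 1172, 1106, 836.5, 1367 and 1304 CPM there, in order from library 1 to 6. All of them lay far above astrocyte-like nuclei, the next class, where the same libraries gave 313, 333, 284, 274, 379 and 357 CPM. Endothelial-like nuclei thus held 3.45-fold the astrocyte level (log2 1.79, interval 1.75 to 1.82), and the ratio was above 0 on the log2 scale in 6 of 6 libraries. Choroid plexus-like nuclei, which form the blood-cerebrospinal fluid barrier, followed at 283 CPM (library range 236 to 318), a range that overlapped that of astrocytes. Ependymal-like nuclei came next at 154 CPM (91.7 to 254), and thalamic neuron-like nuclei were lowest at 20.9 CPM (10.2 to 27.2). The other 12 classes lay between 26.2 and 107 CPM, and each overlapped its neighbours in the order. Outside the named classes, cluster 22 (1089 nuclei), which mixed markers of 2 classes and had Rgs5 and Flt1 among its leading genes, held 1267 CPM (894 to 1686 over libraries), a range that overlapped that of endothelial-like nuclei.

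Free transcripts in the droplets give every nucleus some UMIs of genes it does not express, so each low level was set beside that of marker genes of the source cell. In excitatory neuron-like nuclei, Slco1c1 stood at 2.4% of its endothelial level, while the 8 endothelial markers stood at 0.83% (Flt1) to 14.5% (Ly6c1) of theirs, with a median of 3.72%. In microglia-like nuclei the gene stood at 9.13%, beside a marker median of 9.42%, and in OPC-like nuclei at 6.22%, beside 5.35%. The levels of these 3 classes were thus within the range of the markers. Ly6c1 set the upper end of that range, at 55.8% in microglia-like and 38.8% in OPC-like nuclei. Mature oligodendrocyte-like nuclei stood at 4.64%, above 6 of the 8 markers (median 3.82%). In astrocyte-like nuclei Slco1c1 stood at 29.0% of the endothelial level, above 7 of the 8 markers (median 5.46%) but below Ly6c1 (37.2%). In choroid plexus-like nuclei it stood at 25.9%, above 8 of 8. Counted per nucleus, 89.9% of endothelial-like nuclei held a Slco1c1 UMI and 19.9% of excitatory neuron-like nuclei did, at median depths of 3490 and 8033 UMIs. With each nucleus thinned to 2000 UMIs the shares were 80.0% and 6.15%.

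Dio2, which makes the active hormone, was concentrated in astrocyte-like nuclei, at 79.3 CPM (76.2 to 82.5). Libraries 1 to 6 gave 74.4, 71.8, 67.9, 72.6, 115 and 105 CPM, so libraries 5 and 6 were the highest. The next class, pericyte or smooth muscle-like nuclei, stood at 24.5 CPM on 66 UMIs (library range 11 to 33.9) and did not overlap it. The unnamed cluster 21, which shared leading genes with astrocytes and had a high doublet score, held 28.9 CPM (24.6 to 37.4). Endothelial-like, ependymal-like, fibroblast-like and microglia-like nuclei lay between 14.6 and 17.4 CPM, and the 5 classes of neurons between 2.99 and 5.66 CPM. Against excitatory neuron-like nuclei (3.40 CPM, library range 1.46 to 5.12) the astrocyte level was 23.3-fold higher (log2 4.54, interval 4.40 to 4.69), and the log2 ratio ranged from 3.83 to 6.16 over the 6 libraries.

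In the classes looked at outside astrocytes, Dio2 stood within the range of astrocyte marker genes. In excitatory neuron-like nuclei it stood at 4.28% of the astrocyte level, beside 1.73% to 10.3% for the 8 astrocyte markers. In fibroblast-like nuclei it stood at 20.7%, above 1 of the 8 markers, and in endothelial-like nuclei at 22%, above 5 of the 8. In microglia-like nuclei it stood at 18.4%, beside a median of 13.2%, above 6 of 8 markers. A UMI of Dio2 was found in 21.2% of astrocyte-like and 3.00% of excitatory neuron-like nuclei, at median depths of 3310 and 8033 UMIs, and in 13.3% and 0.831% after thinning to 2000 UMIs.

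Dio3, which inactivates the hormone, was close to the limit of detection in every class. Its 116 UMIs were spread over 115 nuclei. The highest level was that of astrocyte-like nuclei, 0.64 CPM (0.39 to 1.00) from 20 UMIs, and fibroblast-like nuclei followed at 0.61 CPM (0.24 to 1.25) from 7 UMIs. Choroid plexus-like, dividing-like and neuroblast-like nuclei held none. With a count of 0, the exact interval still reached 0.450 CPM in neuroblast-like, 1.18 CPM in dividing-like and 1.58 CPM in choroid plexus-like nuclei. An order of the classes was not detectable at this depth, and Dio3 did not reach the 50 UMIs that the comparisons below required.

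Thra, the receptor that predominates in the developing brain, was counted in every class. Among the named classes it was highest in immature oligodendrocyte-like nuclei, at 302 CPM (292 to 313). Libraries 1 to 6 gave 314, 322, 277, 282, 315 and 271 CPM. Mature oligodendrocyte-like nuclei followed at 236 CPM (library range 160 to 273), with library 6 lowest and library 3 overlapping the immature class, and astrocyte-like nuclei at 213 CPM (166 to 248). The unnamed cluster 0 (8038 nuclei), led by mitochondrial genes, held 281 CPM (209 to 298), between the immature and the mature class. The lowest classes were inhibitory neuron-like nuclei, at 109 CPM (87.6 to 126), and thalamic neuron-like nuclei, at 79.6 CPM (61.2 to 91.6), which overlapped. Among excitatory clusters the level ran from 92.8 CPM in cluster 7, which carried the layer 4 marker Rorb among its leading genes, to 191 CPM in cluster 19, which carried markers of dentate granule neurons and overlapped the hippocampal cluster 24 at 187 CPM.

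Thrb, the other receptor, had a different order of classes. It was highest in inhibitory neuron-like nuclei, at 907 CPM (896 to 918), where libraries 1 to 6 gave 863, 965, 874, 868, 955 and 921 CPM. All of these exceeded excitatory neuron-like nuclei, at 548 CPM (531 to 584 over libraries), which in turn did not overlap astrocyte-like nuclei, at 454 CPM (430 to 484). Striatal projection neuron-like nuclei (451 CPM, 406 to 476) overlapped astrocytes. The unnamed cluster 9, with under 3 enriched markers, held 621 CPM (583 to 655). Neuroblast-like nuclei were lowest, at 159 CPM (101 to 249), and microglia-like nuclei next, at 183 CPM (101 to 293). Over the 27 named clusters, log2 levels of Thra and Thrb had a Pearson correlation of -0.42, a description of clusters that share libraries and differ in depth.

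Within the inhibitory class, nuclei gated on markers of the Lhx6 lineage (1650 nuclei, medial ganglionic eminence interneurons) held 1010.2 CPM of Thrb (library range 961 to 1044) and those gated on Adarb2-lineage markers (545 nuclei) 765 CPM (710 to 839), without overlap. Within the excitatory class the clusters were unequal as well. Cluster 30, named from layer 5 markers, held 919 CPM (844 to 1038), cluster 7 709 CPM (686 to 773) and the upper-layer cluster 4 660 CPM (632 to 688), while the dentate granule cluster 19 held 189 CPM (148 to 218). The dentate granule cluster thus had the highest Thra and the lowest Thrb of the excitatory clusters. Direct-pathway and indirect-pathway striatal nuclei (1385 and 1375) stood at 474 and 461 CPM, with library ranges that overlapped.

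Hr, the hormone-induced corepressor, was highest in astrocyte-like nuclei, at 29.6 CPM (27.7 to 31.6). Libraries 1 to 6 gave 35.9, 25.7, 20.5, 30.8, 38.1 and 37.0 CPM, with library 3 lowest. The level came largely from 1 of the class's clusters, cluster 13, at 74.4 CPM, while cluster 1 stood at 14.2 CPM. Mature oligodendrocyte-like nuclei, at 24.6 CPM (13.8 to 28.0), overlapped that range, and thalamic neuron-like nuclei, at 16.6 CPM (14 to 18.8), overlapped that of mature oligodendrocytes. Thalamic neuron-like nuclei held 56.1% of the astrocyte level of Hr and at most 13.4% of that of any of 8 astrocyte markers. The lowest level was that of striatal projection neuron-like nuclei, 2.78 CPM (1.5 to 4.01). Among excitatory clusters, cluster 7 was highest at 18.7 CPM (15.6 to 22.7).

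Klf9 was highest in astrocyte-like nuclei too, at 332 CPM (326 to 339), and libraries 1 to 6 gave 368, 335, 303, 316, 336 and 350 CPM. Every library exceeded all values of fibroblast-like nuclei (254 CPM, 224 to 283), the next class, which overlapped endothelial-like nuclei (213 CPM, 201 to 240). Inhibitory neuron-like nuclei were lowest, at 62.1 CPM (40.6 to 76.3), and subcortical neuron-like nuclei next, at 65.3 CPM (44.8 to 83.1). Striatal nuclei gated to the direct and the indirect pathway held 126 and 137 CPM, more in every library than interneurons gated to the Lhx6 lineage (59.7 CPM, 37.1 to 79.2). Over the named clusters, the log2 level of Klf9 correlated with that of Dio2 at 0.83 and that of Slco1c1 at 0.73, and Dio2 with Slco1c1 at 0.82, again as a description over 27 clusters. Hr correlated with Klf9 at 0.38.

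The following comparisons set pairs of classes side by side. A gene was called higher or lower if the interval of its pooled log2 ratio left out 0 and all 6 libraries had the same direction, among genes with at least 50 UMIs in both classes together. Pooled ratios and their intervals come from counts summed over libraries, and the direction was also taken within each library. No p-value is given, since no test of classes across libraries was run. Of the 7 genes, 6 could be compared each time.

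The first concerned the oligodendrocyte lineage, the cells that thyroid hormone drives to mature. From OPC-like to immature oligodendrocyte-like nuclei, Thra and Hr were called higher and Thrb and Slco1c1 lower, beside 12.6% of 14240 genes called higher and 16% called lower. Thra was 1.79-fold higher (log2 0.84, interval 0.76 to 0.92). OPC-like nuclei of libraries 1 to 6 had 180, 201, 180, 153, 132 and 121 CPM, all below every immature value. Hr stood at 15.5 CPM against 8.45 (log2 0.87, interval 0.50 to 1.25), from 152 and 102 UMIs, and was higher in 6 of 6 libraries although the library ranges, 12 to 20.2 and 6.28 to 13.1, overlapped. Thrb was 0.83-fold (log2 -0.26, interval -0.34 to -0.19), at 245 against 294 CPM, with library 4 highest in both stages. It was lower in 6 of 6 libraries although the library ranges, 205 to 308 and 255 to 356 CPM, overlapped. Its log2 ratio was -0.67 when nuclei with the highest doublet scores were removed. Slco1c1 had 51.7 against 68.0 CPM (log2 -0.40, interval -0.56 to -0.23), and this call was lost at clustering resolution 0.5 (log2 -0.07, interval -0.23 to 0.09) and with gated nuclei (log2 -0.23, interval -0.46 to 0.01). Klf9 had 136 against 117 CPM (log2 0.21, interval 0.10 to 0.32), higher in 5 of 6 libraries, and was called only without library 4 (log2 0.29). Dio2 had 8.05 against 11.4 CPM (log2 -0.51, interval -0.92 to -0.10), lower in 5 of 6 libraries, and was called only without library 6 (log2 -0.59). The summed CPM of the 8 astrocyte markers was 825 in OPC-like nuclei (680 to 908 over libraries) and 550 in immature nuclei (317 to 651), with UMIs of all 8 in both, and that of the 8 endothelial markers was 254 CPM (156 to 284) and 196 CPM (149 to 222). The part of either in the lower Slco1c1 and Dio2 values was not tested.

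From immature to mature oligodendrocyte-like nuclei, Thra was called lower and no member higher, beside 17.9% of 14737 genes called lower and 11.2% called higher. Thra had 0.78-fold the immature level (log2 -0.36, interval -0.43 to -0.29), lower in 6 of 6 libraries, and this call was lost under TMM scaling (log2 -0.22, higher in 1 library). TMM is an alternative to scaling by all UMIs that sets the trimmed mean ratio of genes to 0, and here it raised all ratios by 0.13 and moved the share of called genes that were higher from 38.5% to 57.4%. Klf9 stood at 139 against 136 CPM (log2 0.04, interval -0.06 to 0.13), with 3 libraries on each side, and was not called. Mature nuclei of libraries 1 to 6 had 26.9, 25.8, 14.3, 13.8, 28.0 and 15.8 CPM of Hr, from 101 to 833 nuclei a library, so the libraries fell well apart. With all summed, Hr was 24.6 against 15.5 CPM (log2 0.67, interval 0.40 to 0.94). Libraries 1, 2 and 5 gave 743, 833 and 482 of 2481 mature nuclei, and 376, 489 and 290 of 1899 immature nuclei. The summed ratio and its interval thus weight libraries unequally between the stages, and the part of this in the ratio was not tested. Hr was higher in 5 of 6 libraries, with log2 ratios from -0.34 to 1.23, and was called only without library 6 (log2 0.72). Thrb had 197 against 245 CPM (log2 -0.31, interval -0.39 to -0.24), lower in 5 of 6 libraries. Without library 4 both Thrb (log2 -0.31) and Dio2 (log2 -0.69) were called lower. Thrb stood at -0.78 when nuclei with the highest doublet scores were removed, and gated nuclei gave -0.33 and a call. In mature nuclei, library 4 had the highest Thrb (323 CPM, others 159 to 214). It also had the highest sums of astrocyte markers (832 CPM, others 325 to 664) and of excitatory neuron markers (569 CPM, others 443 to 524). Its sum of mature oligodendrocyte markers was the lowest (3743 CPM, others 4708 to 5678). Its sum of endothelial markers lay within the other libraries (161 CPM, others 98.9 to 171). The part of other cells' RNA in the Thrb level of library 4 was not tested.

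**Figure D2:**
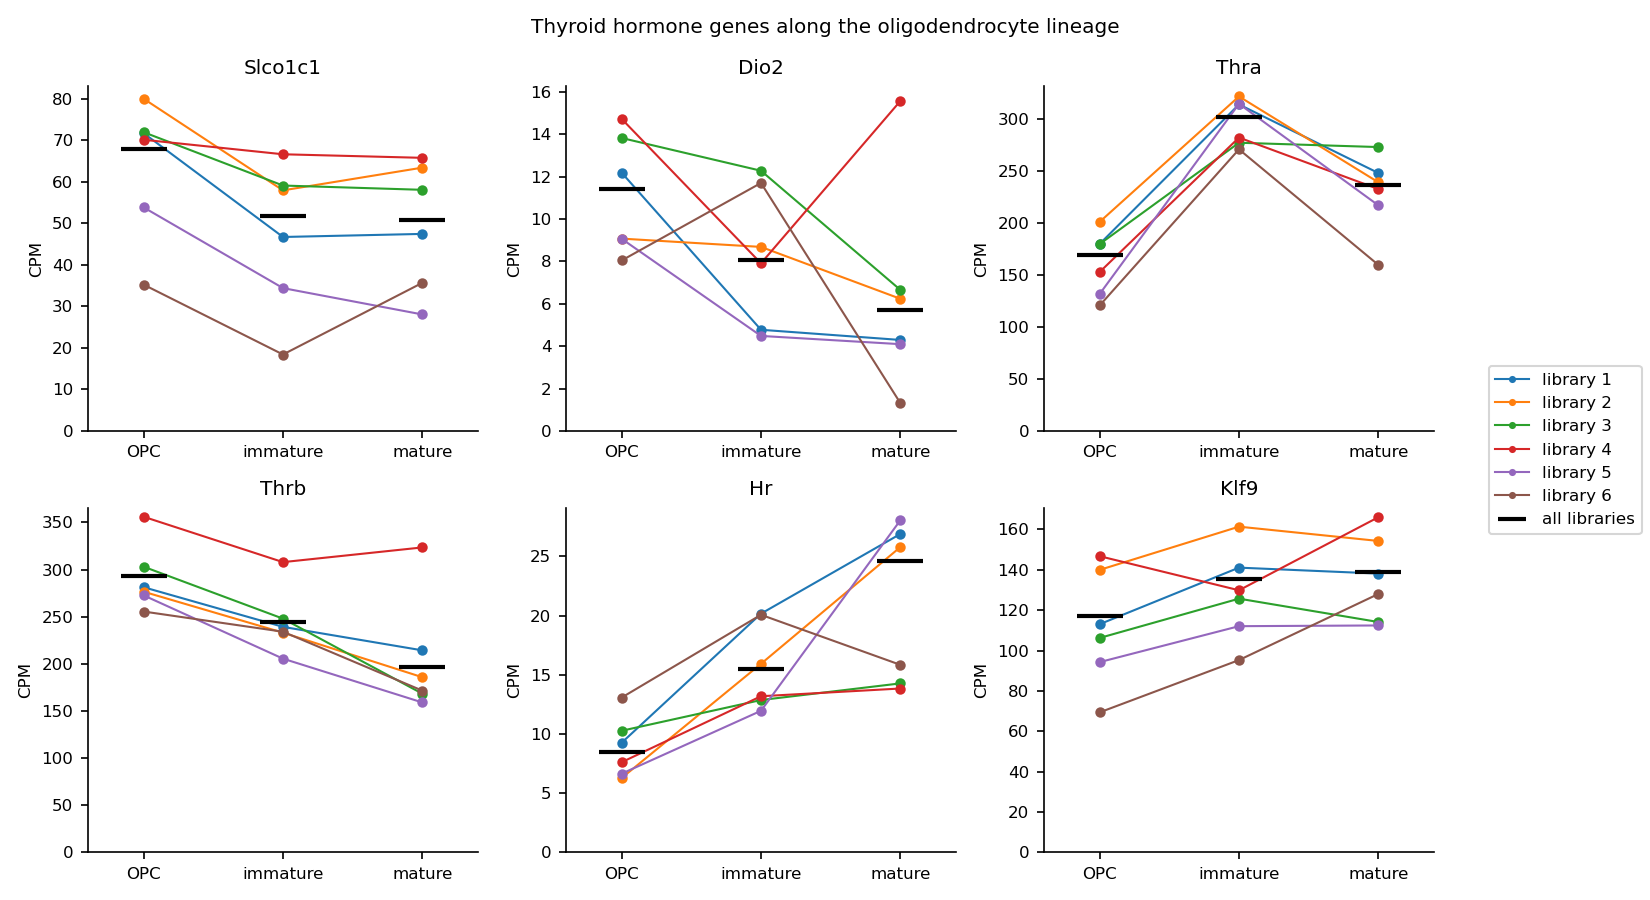
CPM (vertical axes, from 0) of 6 genes in OPC-like, immature and mature oligodendrocyte-like nuclei; coloured points joined by lines are single libraries and black bars all libraries summed. Thra is highest in immature nuclei in all libraries (302 CPM against 169 and 236 summed), but in library 3 by little (277 against 273 CPM in mature nuclei). With libraries summed, Hr goes from 8.45 to 15.5 and 24.6 CPM, Thrb from 294 to 245 and 197 CPM, and Klf9 stays between 117 and 139 CPM. Hr in mature nuclei is 25.8 to 28.0 CPM in libraries 1, 2 and 5 and 13.8 to 15.8 CPM in libraries 3, 4 and 6.

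Astrocyte-like were compared with excitatory neuron-like nuclei because astrocytes are thought to supply neurons with active hormone. Thra, Dio2, Slco1c1, Hr and Klf9 were called higher in astrocytes and Thrb lower, beside 49.6% of 18980 genes called higher and 20.7% lower. Since the median of all genes was itself 0.44 on the log2 scale, the ratios are read against it. Dio2 (4.54), Slco1c1 (3.6), Klf9 (1.54) and Hr (1.41) stood well above that median, Thra (0.60, interval 0.56 to 0.64) close to it, and Thrb (-0.27, interval -0.30 to -0.25) below it. TMM scaling shifted all these ratios by -0.45, under which Thra was no longer called (0.15, 5 of 6 libraries) and 47.0% of called genes, in place of 70.6%, were higher in astrocytes. The other 5 members kept their direction and call. The Hr ratio was unevenly spread within the astrocytes: cluster 1, with 6264 of the 8314 nuclei, had 14.2 CPM against 11.1 CPM in excitatory neuron-like nuclei, and cluster 13 had 74.4 CPM.

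Endothelial-like against astrocyte-like nuclei set the cells of entry beside the cells of activation. Slco1c1 was called higher, and Thra, Thrb, Dio2, Hr and Klf9 lower, beside 25.7% of 16630 genes called higher and 19.5% called lower. Dio2 was lower by a log2 of -2.18 (interval -2.36 to -2.01) and Hr by -2.13 (-2.42 to -1.85), and the library ranges of the classes overlapped for neither gene. Thrb had 236 against 454 CPM (log2 -0.94), Klf9 213 against 332 CPM (log2 -0.64) and Thra 173 against 213 CPM (log2 -0.30, interval -0.36 to -0.24), the last with overlapping libraries. The 8 astrocyte markers summed to 1244 CPM in endothelial-like nuclei (864 to 1417 over libraries), against 5927 CPM in astrocytes. With gated nuclei, the ratio of Slco1c1 was 2.42 and that of Thrb -1.56.

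Striatal projection neuron-like and excitatory neuron-like nuclei were compared because striatal neurons are known for many hormone-dependent genes. Dio2, Slco1c1 and Klf9 were called higher and Thrb and Hr lower in striatal nuclei, beside 25.2% of 18835 genes called higher and 22.1% lower. Hr, at 2.78 against 11.1 CPM, was 0.25-fold (log2 -2.0, interval -2.29 to -1.73), and the libraries did not overlap. Thrb (451 against 548 CPM, log2 -0.28) did not overlap either. Klf9 (133 against 114 CPM, log2 0.22, interval 0.18 to 0.27), Slco1c1 (34.0 against 26.2 CPM, log2 0.37) and Dio2 (4.12 against 3.40 CPM, log2 0.28, interval 0.01 to 0.54) overlapped. The call of Dio2 was lost without library 1 (0.24), 2 (0.26), 5 (0.26) or 6 (0.25), at resolution 2.0 (0.25) and under TMM (0.24). Of 8 astrocyte markers, all with UMIs in both classes, the median stood at 7.56% of the astrocyte level in striatal and 5.81% in excitatory nuclei. Their sum, 1064 CPM in striatal (1026 to 1100 over libraries) and 334 CPM in excitatory nuclei (244 to 447), included Slc4a4, at 44.7% of its astrocyte level in striatal nuclei. The 8 endothelial markers summed to 130 CPM in striatal (84.3 to 156 over libraries) and 108 CPM in excitatory nuclei (72.3 to 154). The part of astrocyte or endothelial RNA in the Dio2 and Slco1c1 ratios was not tested.

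**Figure D3:**
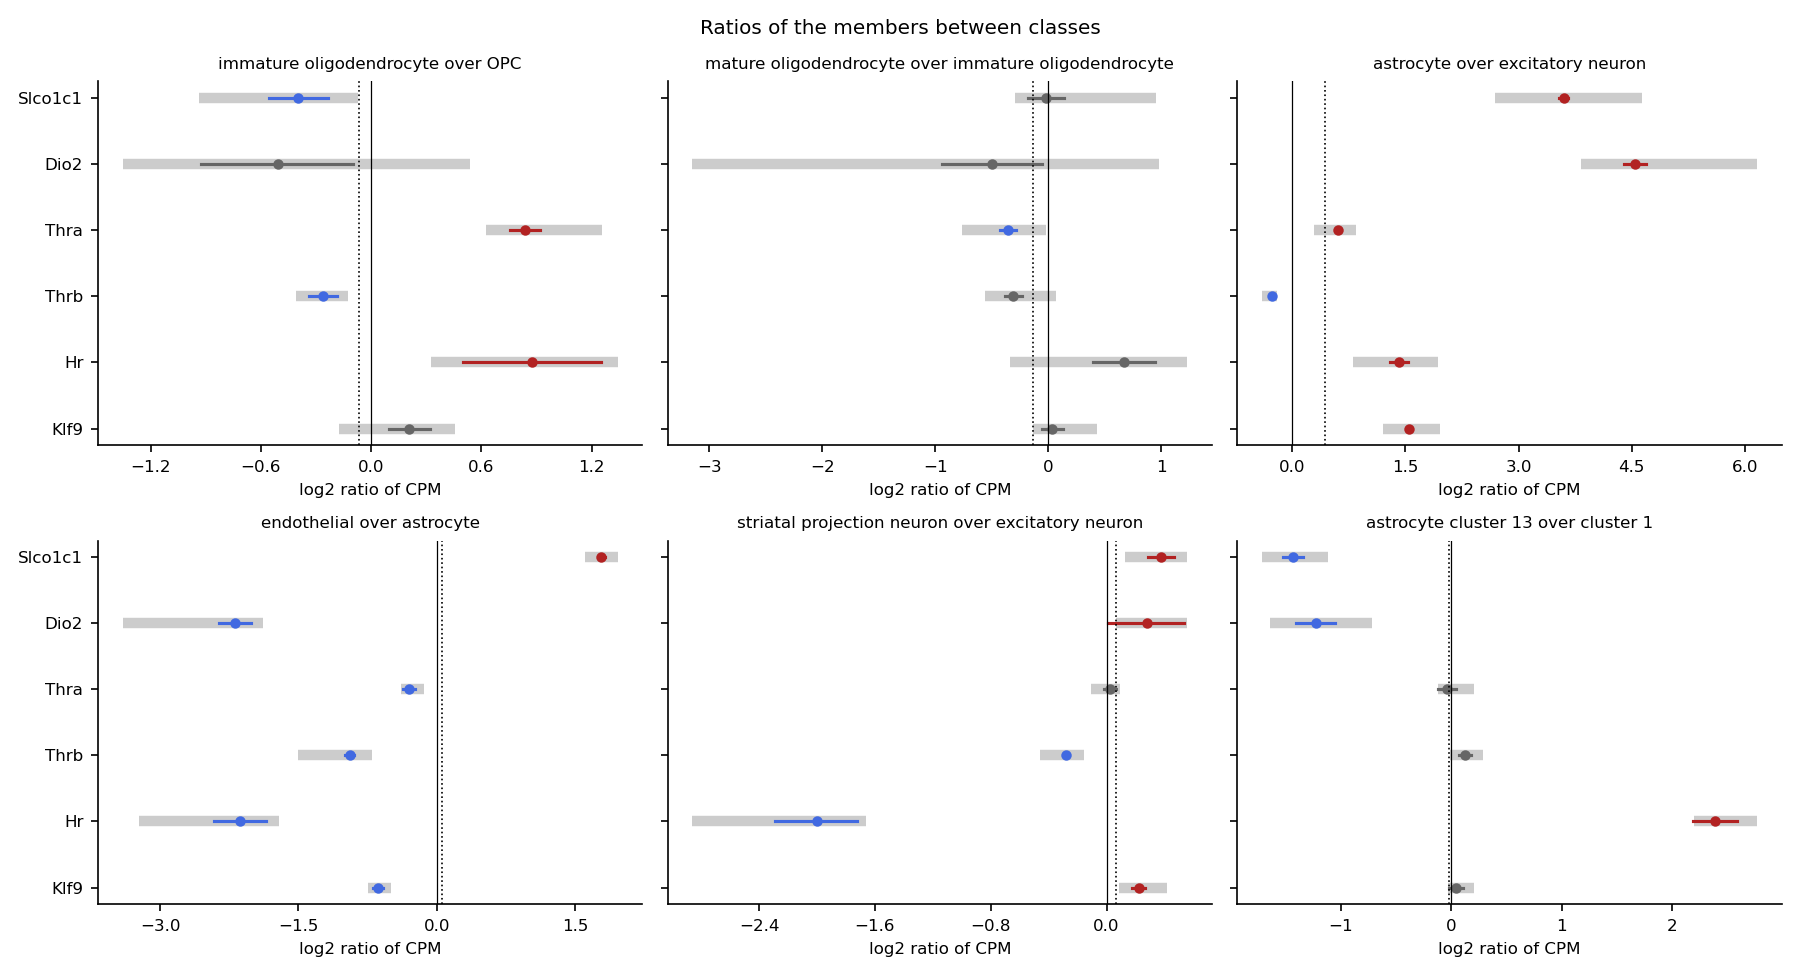
log2 ratio of CPM between the first and the second class named above each panel (horizontal axes, scales differ) for 6 genes; dots are all libraries summed, thin lines counting intervals, grey bars the range over libraries, red and blue calls higher and lower, and the dotted line the median of all genes. Slco1c1 is at 1.79 in endothelial over astrocyte nuclei, Dio2 at 4.54 in astrocyte over excitatory nuclei, and Hr at 2.39 in astrocyte cluster 13 over cluster 1.

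The astrocyte-like class held a pair of clusters that differed in Hr, Dio2 and Slco1c1 but were not called different in Thra, Thrb or Klf9, a comparison added after their values had been seen. Cluster 1 (6264 nuclei, with Phkg1, Gli2 and Slc1a3 among its leading genes) and cluster 13 (2050 nuclei, with Slc6a11, Itih3 and Etnppl) both had all 8 astrocyte markers enriched, at 5778 and 6360 CPM in sum. Hr was 74.4 CPM in cluster 13 and 14.2 CPM in cluster 1, 5.22-fold higher (log2 2.39, interval 2.19 to 2.58). Libraries 1 to 6 gave 85.3, 62.5, 50.2, 88.2, 98.7 and 95.7 CPM in cluster 13 and 18.6, 12.9, 9.55, 12.9, 18.8 and 16.6 CPM in cluster 1, without overlap. Dio2 went the other way, 39.6 against 92.9 CPM (log2 -1.23, interval -1.40 to -1.06), with libraries at 37.2, 28.0, 32.5, 43.3, 58.4 and 70.9 CPM in cluster 13 and at 87.5, 87.0, 80.9, 81.8, 132 and 116 CPM in cluster 1. Slco1c1 had 140 against 378 CPM (log2 -1.44, interval -1.53 to -1.35), with library ranges of 132 to 156 and 318 to 456 CPM. These 3 were called, beside 6.72% of 15311 genes called higher and 8.70% called lower in cluster 13. Thra (209 against 215 CPM), Klf9 (340 against 330 CPM) and Thrb (483 against 444 CPM, log2 0.12, interval 0.07 to 0.18) had overlapping libraries and were not called. Thrb was called without library 5 (0.14) or without the nuclei of highest doublet score (0.14). The 8 endothelial markers summed to 247 CPM in cluster 13 and 252 CPM in cluster 1. The pair depends on the clustering resolution. At 0.5 the astrocyte-like class was 1 cluster (8313 nuclei). At 2.0 it was clusters of 3693, 2053 and 1865 nuclei, the last with Thbs4, Myoc and Gfap among its leading genes. A further 1609 nuclei with leading genes of astrocytes were unnamed there for a high doublet score. How cluster 1 divides over these was not tested.

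**Figure D4:**
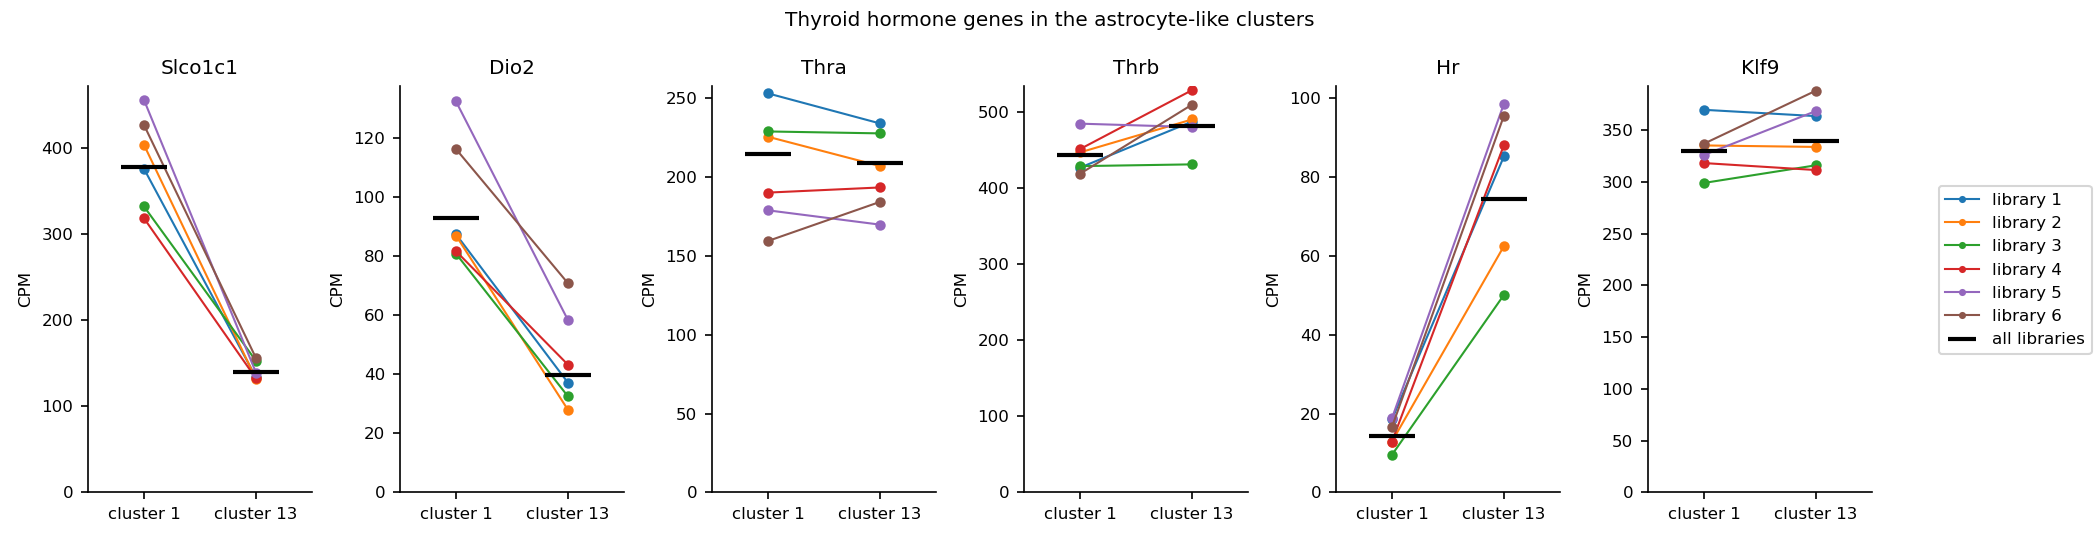
CPM (vertical axes, from 0) of 6 genes in the astrocyte-like clusters 1 and 13; coloured points joined by lines are single libraries and black bars all libraries summed. Hr is 74.4 CPM in cluster 13 and 14.2 CPM in cluster 1, Slco1c1 140 and 378 CPM, Dio2 39.6 and 92.9 CPM, and Thra, Thrb and Klf9 stay close together.

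Beyond these 7, a list of 36 genes of the pathway was followed, of which 32 to 34 had enough UMIs in a comparison. From OPC-like to immature nuclei 4 of 32 were called higher and 5 lower, beside 12.6% and 16% of all genes, and from immature to mature nuclei 5 and 5 of 32, beside 11.2% and 17.9%. In astrocyte-like over excitatory neuron-like nuclei 25 of 34 were called higher and 5 lower, beside 49.6% and 20.7%. In endothelial-like over astrocyte-like nuclei the counts were 15 and 6 of 32, beside 25.7% and 19.5%, and in striatal over excitatory nuclei 12 and 7 of 34, beside 25.2% and 22.1%. In astrocyte cluster 13 over cluster 1 they were 5 and 6 of 32, beside 6.72% and 8.70%. Nothing particular to the list is read from these counts. The median log2 ratio of the list was 0.57 in astrocyte over excitatory nuclei, beside 0.44 for all genes, and 0.13 in endothelial over astrocyte nuclei, beside 0.06.

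Among the transporters, 7 of 7 were called higher in endothelial-like than in astrocyte-like nuclei, beside 25.7% of all genes. Slco1a4, which carries organic anions and thyroid hormones, stood at 1100.4 CPM in endothelial-like nuclei (900.5 to 1625 over libraries), and Slc7a5, the large neutral amino acid transporter, at 468 CPM (382 to 947), both clear of the next class. Slco2b1, another organic anion transporter, was highest in microglia-like nuclei at 416 CPM (325 to 564). Of the genes of hormone metabolism and binding, Ttr, the thyroxine carrier made by the choroid plexus, stood at 6028 CPM in choroid plexus-like nuclei (4718 to 7473) and still at 145 CPM in thalamic neuron-like nuclei, its lowest class. Crym, a cytosolic binder of triiodothyronine, was highest in striatal projection neuron-like nuclei at 76.5 CPM (71.0 to 83.0), and Secisbp2, needed to build selenoproteins such as deiodinases, varied little, from 29.4 to 50.9 CPM.

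The receptor partner Rxrg was highest in striatal projection neuron-like nuclei, at 71.2 CPM (61.8 to 82.1), with neuroblast-like nuclei next at 19.9 CPM. Rxra and Rxrb were highest in microglia-like nuclei, at 15.1 CPM (8.64 to 18.4) and 23.5 CPM (20.2 to 27.1), with ranges that overlapped the next class. Of the corepressors, Gps2 and Hdac3, members of the same complex, spanned 36.2 to 81.7 CPM and 25.2 to 45.6 CPM over the classes. Of the coactivators, Ncoa1 was highest in astrocyte-like nuclei at 497 CPM (466 to 602), and Ncoa3 and Ep300 in microglia-like nuclei at 177 CPM (118 to 214) and 185 CPM (163 to 249). Of the response genes, Mbp, which encodes myelin basic protein, stood at 5785 CPM in mature oligodendrocyte-like nuclei (3777 to 7022) and 1808 CPM in immature nuclei, and was called higher at both steps. Reln was highest in inhibitory neuron-like nuclei at 520 CPM (487 to 576) and Ptgds, a prostaglandin synthase of the meninges and oligodendrocytes, in fibroblast-like nuclei at 1809 CPM (1392 to 3009.7).

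Genes with the most similar pattern over the 27 named clusters were sought for each member among 14947 others with at least 1000 UMIs. Dio2 was closest to Atp1b2 (Pearson r 0.970), Ndrg2 (0.969) and Ntsr2 (0.967), and Slco1c1 to Nfkbia (0.954), Id1 (0.952) and Fzd4 (0.935). Klf9 was closest to Sardh (0.895), Gjb6 (0.888) and Lgi4 (0.884), and Hr to Pacsin3 (0.739), Tesk2 (0.711) and Acaca (0.71). Thra was closest to Arpc1a (0.831), Supt6 (0.831) and Aplp1 (0.825). For Thrb the closest was Gm48321 (0.978, 22008 UMIs), which lies on the opposite strand of Thrb itself, followed by Gm15336 (0.705) and Prkaa2 (0.700). For Dio3, with 116 UMIs, the closest were Npy1r (0.689), Lrrc73 (0.685) and Hectd3 (0.673). The clusters share libraries and the genes share depth, and the values are a description.

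Between libraries, levels over all nuclei ranged from 113 to 171 CPM for Thra, 424 to 482 for Thrb, 76.8 to 144 for Slco1c1, 8.96 to 12.4 for Dio2, 9.21 to 11.8 for Hr and 102 to 150 for Klf9. Library 6 was lowest for Thra, Slco1c1, Dio2 and Klf9. The order also appeared within many classes. Thra was lowest in library 6 in 13 of 17 classes and highest in library 1, 2 or 3 in all of them. Klf9 was lowest in library 6 in 10 of 17. In astrocyte-like nuclei, where Dio2 and Klf9 were highest, library 6 was not lowest. Only library 5 exceeded its Dio2 there (115 against 105 CPM), and only library 1 its Klf9 (368 against 350 CPM). Slco1c1 was lowest in library 6 in 8 and in library 5 in 6 of 17 classes, but libraries 5 and 6 were the highest 2 of 6 in endothelial-like and astrocyte-like nuclei, where the gene is most abundant. Library 6 also had the lowest summed level of endothelial markers in excitatory neuron-like nuclei, 72.3 CPM, where other libraries had 79.1 to 154. Depth per nucleus was lowest in library 6, at a median of 4469 UMIs, but nearly the same in library 5 (4487). It was highest in library 4 (5439). The part of depth in these orders was not tested.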

How the data were processed

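Nuclei of 6 forebrains were measured by snRNA-seq. The authors deposited 1 matrix of UMI counts (whole numbers) for each gene in each barcode, written per its header by Cell Ranger 6.0.0. Whether library depths were equalized when the matrix was made is not stated in the sources used here. The submitters' processing notes name Cell Ranger 2.1.1 and mm10, and the study's methods another aligner, filters and imputation, and no source used here states how the matrix relates to the data analysed there, its annotation release or its use of introns and strand. Libraries of 51343653 to 107583300 UMIs were joined without a key to mice. The members and lists were chosen with earlier results of these data known.

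Counts of 75867 nuclei were scaled to 10000, log-transformed and reduced to 3000 variable genes (members and pathway genes left out), 30 principal components and 20 neighbours, and clustered (Leiden, resolution 1.0, leidenalg 0.10.2, scanpy 1.11.5). No imputation or integration was applied. Clusters were named from 29 marker lists, if at least 3 markers were enriched 1.5-fold. They stayed unnamed where mitochondrial, ribosomal or haemoglobin genes led, where 2 unrelated classes were marked, or where the mean Scrublet score was over 0.2. These limits, and the gates within inhibitory and striatal classes, were chosen with the clusters in view. No doublets were removed in the values given. Sums carry exact Poisson, shares Clopper-Pearson and ratios exact binomial intervals at 95%. The code for ratios and calls was tested on simulated data. Thinning to 2000 UMIs left out shallower nuclei and kept 67638. Nuclei of the alternative gate needed 3 markers of a class and 2 more than of any other. TMM factors came from edgeR 4.0.16. Positions are from GENCODE M21.

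Genes named are the 7 members, for each the 3 with the most similar pattern, and in each role of the pathway the 3 of at least 1000 UMIs with the largest ratio of highest to median class level. The text also names marker genes, leading genes of clusters and genes that overlap a member. A result that this rule names among the pathway genes is not reported here.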

Additional observations from a re-analysis of the deposited data

Results flagged for a closer look

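The 6 libraries were searched for a single library that stood apart in the level of a member, over all nuclei and in each class with at least 100 UMIs of it. Of 93 sets of 6 values, 2 were marked. The rule marks about 1 in 20 sets of independent values by chance. These sets share libraries and nuclei, so the count is not read against that rate. Thrb in mature oligodendrocyte-like nuclei was 323 CPM in library 4, where the other libraries had 159 to 214 CPM. Dio2 in mature oligodendrocyte-like nuclei was 15.6 CPM in library 4, where the others had 1.32 to 6.66 CPM. Both values come from the same nuclei. In these, library 4 also had the highest summed levels of astrocyte markers (832 CPM) and of excitatory neuron markers (569 CPM). Its summed level of mature oligodendrocyte markers was the lowest, 3743 CPM.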

How the results depend on the processing

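No result comes from a test, and the replicate numbers of the mice are not carried by the barcodes. Ratios of classes and their intervals come from counts summed over libraries. Both classes of a comparison were present in every library, and the direction was also taken within each library. No ratio of a member reversed under any alternative, but the balance of genes called higher and lower did under TMM scaling. The share of called genes that were higher fell from 70.6% to 47.0% in astrocyte over excitatory nuclei. It fell from 56.8% to 47.8% in endothelial over astrocyte and from 53.3% to 48.5% in striatal over excitatory nuclei. It rose from 38.5% to 57.4% in mature over immature and, on the same side, from 44.0% to 49.8% in immature over OPC nuclei. Of 228 ratios of members recomputed with a stricter filter on nuclei, other clustering resolutions, doublet removal, gated nuclei, TMM scaling or without shared barcodes, 205 moved by less than the spread between libraries, and so did all 216 with 1 library left out. The ratio of Slco1c1 in endothelial-like over astrocyte-like nuclei was 1.95 at resolution 2.0, 2.07 without the highest doublet scores and 2.42 with gated nuclei, against 1.79. Of 160 counts of genes called, 3 moved by over 1.5 times, all under TMM scaling: 1616 in place of 2631 genes called lower from immature to mature oligodendrocyte-like nuclei, and 5921 in place of 9423 called higher and 6673 in place of 3922 called lower in astrocyte-like over excitatory neuron-like nuclei. Leaving out barcodes found in over 1 library was an alternative chosen after seeing the data. The added comparison of astrocyte clusters was not run at other resolutions, with gated nuclei or under TMM scaling. Few UMIs limit what can be said of Dio3 in every class, and of Dio2 and Hr in small classes. With no map from libraries to mice, the spread between libraries mixes genotype, animal and technical differences, which cannot be told apart.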
